A study of Mus musculus with 4 samples.

Results

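The peaks described here are those of CHD8 at the histone methyltransferase gene Kmt5b and at the bromodomain gene Brd2 in mouse embryonic stem cells. They were chosen by position: every peak overlapping chromosome 19 from 3740000 to 3830000 (Kmt5b, also named Suv420h1) or chromosome 17 from 34240000 to 34270000 (Brd2), in build mm9. The rule found 3 of the 22706 peaks of ChIP replicate 1 and 5 of the 31002 peaks of ChIP replicate 2, 8 peaks in all. The windows were proposed because they hold the strongest and the widest CHD8 peak, so fold enrichment, significance, width and the ranks by them chose the members and are given as a description without a test. The tie between window and gene comes from that rule, since no gene annotation of mm9 was used here.

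The series held 4 samples of embryonic stem cells grown on gelatin in 2i medium, which keeps such cells in a naive pluripotent state. The cells carried, at both copies of the endogenous Chd8 gene, a C-terminal 3xFLAG tag. The ChIP group was 2 samples precipitated with the ANTI-FLAG M2 antibody, and the other 2 samples were inputs without antibody. Inputs could enter only through the peak calls, and whether these took them as control is not given. There was 1 condition, and no ChIP of untagged cells was among the samples, so signal that the antibody gives without the tag cannot be told apart from CHD8. The labels do not say whether the replicates were grown as separate cultures, so the spread between them may be technical. Solved from the peak lists by the caller's formulas, the mean coverage of the ChIP libraries was 3.44 and 3.56 reads over a base. These are not counts of sequenced reads, and they depend on settings of the calls that are not given. The median peak reached a fold of 4.51 in the first list and 4.71 in the second.

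CHD8 is a chromatin remodeller of the CHD family that uses ATP to move nucleosomes and is found at many active promoters. KMT5B adds methyl groups to lysine 20 of histone H4, together with its relative KMT5C, and these marks are known from compact chromatin, DNA replication and DNA repair. BRD2 belongs to the BET family, whose bromodomains bind acetylated histones and help transcription by RNA polymerase II. Both genes thus encode proteins that write or read histone marks, and both are broadly expressed.

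The RefSeq windows around the annotated starts of both genes are shown because CHD8 is known from promoters and the peaks were tied to these genes. Each runs from 250 bases before a start to 50 after it, in build GRCm38.p6. They were not placed on the mm9 peaks, so whether a given start lies under a peak was not determined here. RefSeq gave Kmt5b 2 starts on the plus strand that lie 468 bp apart, and Brd2 3 starts on the minus strand that span 2707 bp. For Brd2 the outermost starts are printed. Capitals mark letter matches, on either strand, to 7 motifs picked after the sequences were seen and spelled out after the last window. No match overlapped one to another motif in these windows.
Kmt5b first start, chr19:3767171-3767470 plus strand: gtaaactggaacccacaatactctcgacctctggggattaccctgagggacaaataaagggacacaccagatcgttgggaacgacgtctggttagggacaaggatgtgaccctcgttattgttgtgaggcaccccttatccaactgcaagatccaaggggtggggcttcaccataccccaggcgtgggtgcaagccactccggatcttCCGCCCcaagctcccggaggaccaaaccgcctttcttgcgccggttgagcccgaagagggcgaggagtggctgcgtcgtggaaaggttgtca
Kmt5b second start, chr19:3767639-3767938 plus strand: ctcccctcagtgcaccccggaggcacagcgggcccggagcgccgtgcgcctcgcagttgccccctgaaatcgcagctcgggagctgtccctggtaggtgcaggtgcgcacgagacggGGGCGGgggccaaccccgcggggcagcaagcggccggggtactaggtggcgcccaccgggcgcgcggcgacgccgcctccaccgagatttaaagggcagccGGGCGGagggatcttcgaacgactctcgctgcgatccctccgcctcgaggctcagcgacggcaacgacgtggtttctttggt
Brd2 first start, chr17:34122558-34122857 minus strand: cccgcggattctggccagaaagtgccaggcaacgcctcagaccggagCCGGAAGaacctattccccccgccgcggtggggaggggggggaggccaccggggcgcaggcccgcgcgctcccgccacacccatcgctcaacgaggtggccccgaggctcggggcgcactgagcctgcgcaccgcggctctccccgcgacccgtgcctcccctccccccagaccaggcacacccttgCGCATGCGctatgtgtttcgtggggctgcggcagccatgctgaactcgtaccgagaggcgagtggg
Brd2 last start, chr17:34119851-34120150 minus strand: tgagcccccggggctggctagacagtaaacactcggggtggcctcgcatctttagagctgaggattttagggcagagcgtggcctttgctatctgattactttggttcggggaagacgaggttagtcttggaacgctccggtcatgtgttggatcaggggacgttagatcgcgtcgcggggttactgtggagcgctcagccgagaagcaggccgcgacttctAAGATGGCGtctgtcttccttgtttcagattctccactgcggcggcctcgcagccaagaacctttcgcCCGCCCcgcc

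All 5 windows had more CG dinucleotides than the median promoter, and the Brd2 windows differed from each other in the motifs they held. The second Kmt5b window had 38 CG dinucleotides and the first had 16, against a median of 7 (quartiles 3 and 20) over 32851 RefSeq windows of the same length. Fewer were counted in 95.05% of all windows than in the second Kmt5b window. The Brd2 windows had 32, 14 and 24 CG dinucleotides from the first to the third start. GGGCGG, the GC box that SP1 and KLF factors bind, was present in both Kmt5b windows and in the second and the third Brd2 window, and 35.7% of all windows held it. The first Brd2 window held GCATGCG, the core of the NRF1 motif, on both strands at overlapping places, and 3.58% of all windows held it. It also held CCGGAAG, the ETS core, which was present in 8.86%. The third Brd2 window held AAGATGGCG, letters of the YY1 motif, and 1.40% of all windows did. The E-box letters CACGTG were in none of the 5 windows and in 7.15% of all. Also in none of the 5 were the NF-Y letters CCAAT, which 37.4% of all windows held. The same was true of TATAAA, the TATA box, with 13.6%. These are matches of letters only.

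At Kmt5b, CHD8 formed a single tall peak with a central summit that nearly coincided between the replicates. In replicate 1 the peak ran from 3767008 to 3769384 on chromosome 19, 2377 bp wide, with a fold enrichment of 43.9 over the local background (95% exact Poisson interval 38.0 to 50.5). In replicate 2 it ran from 3766850 to 3769421, 2572 bp wide, with a fold enrichment of 36.7 (31.6 to 42.5). Fold enrichment is the authors' value throughout, and the intervals cover counting error only. Summit coverage was 194 reads in replicate 1 and 181 reads in replicate 2, recovered from the deposited fold enrichment and p-value, so counting error alone was 7.18% and 7.43%. The summit lay at 3768065 in replicate 1 and at 3768168 in replicate 2, which is 44.5% and 51.2% of the way along the peak. The quartiles of this position over all peaks were 35.6% and 62.9% in replicate 1 and 34.8% and 62.6% in replicate 2, so the Kmt5b summit was as central as most.

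At Brd2, CHD8 covered a stretch 2.30 and 2.43 times as wide as at Kmt5b, with a lower summit that lay at different places in the replicates. In replicate 1 the main peak ran from 34254834 to 34260303 on chromosome 17, 5470 bp wide, with a fold enrichment of 15.2 (12.2 to 18.7). In replicate 2 it ran from 34254135 to 34260379, 6245 bp wide, with a fold enrichment of 18.4 (14.9 to 22.6). These intervals overlap, and the mean over replicates was 16.8 ± 2.26 (SD, n = 2) for fold and 5858 ± 548 bp (SD, n = 2) for width. The summits rested on 88 and 90 reads. The replicate 1 summit, at 34259428, lay 84.0% of the way along the peak and only 875 bases from its end. The replicate 2 summit, at 34256975, lay 45.5% of the way along, with 3404 bases after it. The deposited lists give 1 summit per peak, so the coverage of a replicate at the summit of the other is not known.

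**Figure D1:**
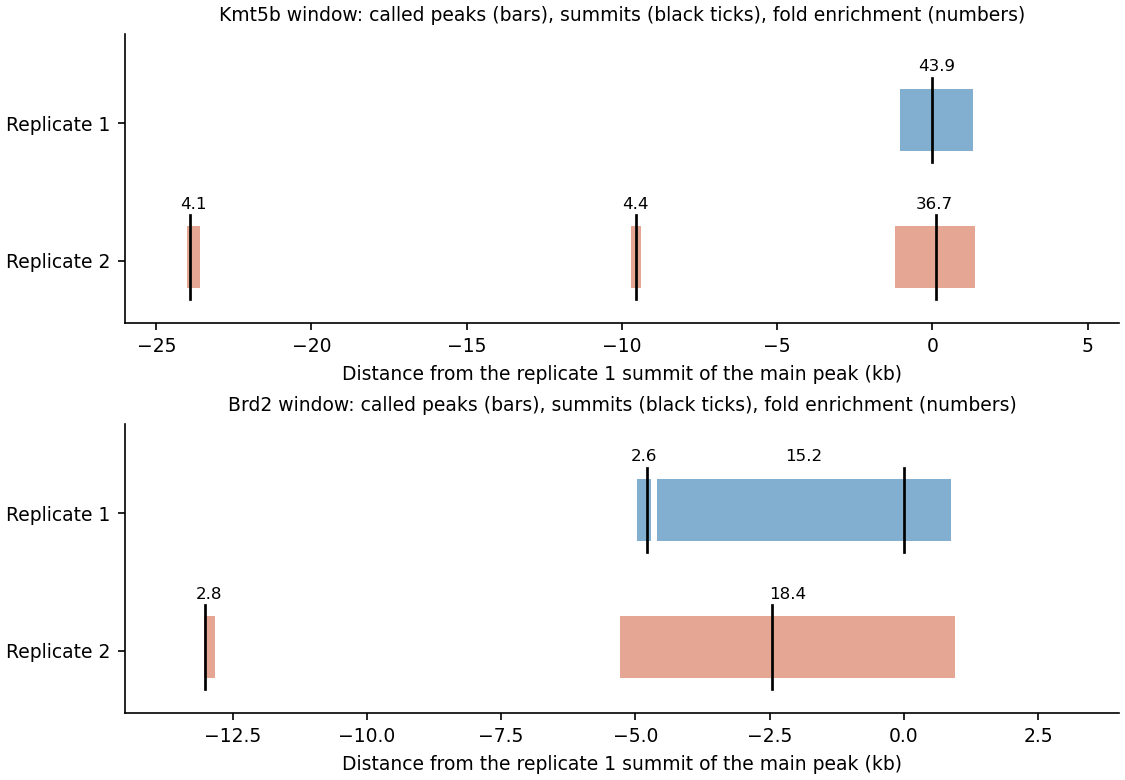
Called CHD8 peaks in the Kmt5b window (top) and the Brd2 window (bottom), as bars along the distance in kb from the replicate 1 summit of the main peak, with black ticks for summits and numbers for the authors' fold enrichment. The Kmt5b summits stand 103 bp apart near the middle of the bars, whereas the Brd2 summits stand 2453 bp apart within bars of 5470 and 6245 bp.

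The remaining 4 peaks of the windows were short and weak, and 3 of them were called in replicate 2 alone. Over the whole lists, 31002 peaks of replicate 2 and 22706 of replicate 1 gave 17867 shared regions. The share of all replicate 2 peaks without a replicate 1 partner was not computed. The 3 are therefore not read as particular to these windows. In the Kmt5b window, replicate 2 had a peak of 423 bp at 3744061 to 3744483 with a fold enrichment of 4.11 and one of 317 bp at 3758353 to 3758669 with 4.44. The nearest replicate 1 peaks lay 22524 bp and 8338 bp away. Their summits rested on 19 and 21 reads, and they stood at ranks 21539 and 18290 of the list by −log10 q, below its middle. In the Brd2 window, replicate 2 had a peak of 200 bp at 34246395 to 34246594 with a fold enrichment of 2.83 on 20 reads, 7867 bp from the nearest replicate 1 peak. Local background at that summit was 1.73 times the genome-wide value. Replicate 1 had a peak of 266 bp at 34254462 to 34254727 with a fold enrichment of 2.56 on 14 reads, only 106 bp before its main Brd2 peak. The single replicate 2 peak covered both, so replicate 1 showed as 2 pieces what replicate 2 showed as 1. The main peak made up 100% and 77.7% of the called bases in the Kmt5b window and 95.4% and 96.9% in the Brd2 window.

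Kmt5b stood above Brd2 in summit height in both replicates, an order that the choice of the strongest peak fixes. On a scale of summit reads over the library's mean coverage, Kmt5b stood at 56.4 (48.7 to 64.9) in replicate 1 and 50.8 (43.6 to 58.7) in replicate 2. Brd2 stood at 25.6 (20.5 to 31.5) and 25.2 (20.3 to 31.0). The weak peaks stood between 4.07 and 5.89. On this scale Kmt5b was 2.20 times Brd2 in replicate 1 and 2.01 times in replicate 2, while by the authors' fold enrichment it was 2.89 and 2.00 times. The larger gap of replicate 1 goes with its local background, which at the Brd2 summit was 1.41 times the genome-wide value, a level reached by 17.0% of the peaks of that list. At both Kmt5b summits and at the replicate 2 summit of Brd2 the background was at the genome-wide value. Over the genome-wide background the Brd2 folds would be 20.05 and 18.4, and Kmt5b would be 2.19 and 2.00 times as high, an alternative added after the data were seen.

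**Figure D2:**
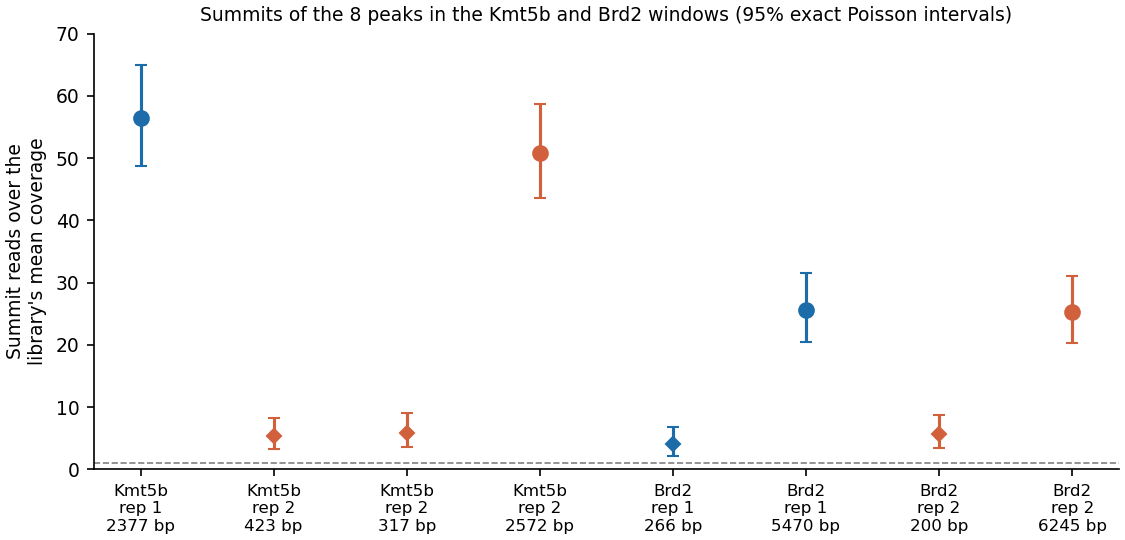
Summit reads over the mean coverage of the library for the 8 peaks, with 95% exact Poisson intervals as bars (blue, replicate 1; orange, replicate 2; circles, main peaks; diamonds, other peaks; dashed line, the mean coverage). The Kmt5b main peaks sit at 56.4 and 50.8, the Brd2 main peaks at 25.6 and 25.2, and the other 4 peaks at 4.07 to 5.89.

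Kmt5b ranked 1 in both lists by fold enrichment, −log10 p, −log10 q and summit reads. Its −log10 q was 251 in replicate 1 and 159 in replicate 2, against 202 and 143 for the peaks at rank 2. The replicate 1 peak at rank 2 by fold enrichment was on chromosome 12 at 44073336 to 44075091, with 37.2, and the replicate 1 fold at Kmt5b was 1.18 times as high. The same chromosome 12 site was second by fold in replicate 2, at 44073355 to 44074869 with 32.5, a ratio of 1.13. The fold at rank 2 lay inside the Poisson interval of the Kmt5b fold in replicate 2 and below it in replicate 1. That rank 2 fold has counting error of its own, which is not included here. Kmt5b was chosen as the highest peak, and its lead was not tested. By summit reads the lead was narrower in replicate 2, where a peak on chromosome 8 at 73396653 to 73398181 had 176 reads against the 181 of Kmt5b. In replicate 1 the second by reads was a peak on chromosome 15 at 74917024 to 74917509 with 170 reads but a fold enrichment of only 1.47. By width Kmt5b stood at rank 209 in replicate 1 and 423 in replicate 2, within the widest 0.92% and 1.36% of the lists.

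Brd2 ranked 1 by width in both lists, and it was also among the stronger peaks. The next widest peak of replicate 1 was on chromosome 1 at 88420998 to 88425843, 4846 bp wide and 624 bp narrower than Brd2, with a fold enrichment of 13.3. The next of replicate 2 was on chromosome 8 at 87183787 to 87189707, 5921 bp wide and 324 bp narrower, with a fold enrichment of 12.5. By −log10 q, which was 72.7 and 61.0, Brd2 stood at rank 339 in replicate 1 and 354 in replicate 2, the highest 1.49% and 1.14%. By fold enrichment it stood at ranks 543 and 305. The first place by width holds for peaks as the caller cut them. When peaks of a list up to 200 bp apart were joined, Brd2 stood at rank 2 with 5842 bp in replicate 1 and rank 5 with 6245 bp in replicate 2. With gaps of up to 1 kb joined it stood at ranks 12 and 50, and these settings were added after the data were seen.

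Each member also stood high in the other measure, although width and −log10 q go together and neither is independent of the choice. Across all peaks, width and −log10 q had a Spearman's rho of 0.77 in replicate 1 and 0.78 in replicate 2 over peaks that share a library. Kmt5b, chosen for its strength, was wider than 90 of the 100 peaks nearest to it in −log10 q in replicate 1 and 86 in replicate 2, whose median widths were 1487 and 1852 bp. Brd2, chosen for its width, had a higher −log10 q than 93 and 92 of the 100 peaks nearest to it in width, whose medians were 32.5 and 26.8. The 100 peaks nearest to Brd2 in −log10 q had median widths of 1460 and 1739 bp and reached 3873 and 4579 bp. The 100 nearest to Kmt5b in width had medians of 31.3 and 28.3 in −log10 q and reached 139 and 99.7. That both members stand above these last sets follows from how they were chosen. The first sets are one-sided too. As Kmt5b ranked 1 in −log10 q and Brd2 ranked 1 in width, the 100 peaks nearest to each were weaker or narrower in that measure. Given the rank correlation, the counts of 90 and 86 and of 93 and 92 are description only.

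**Figure D3:**
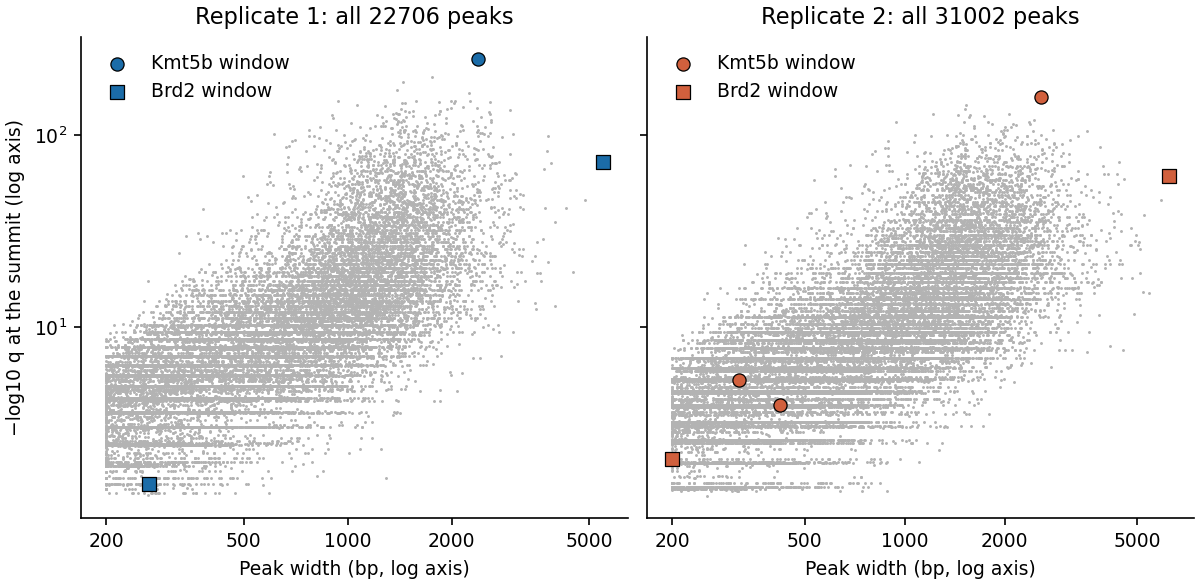
Peak width in bp (log axis) against −log10 q at the summit (log axis) for all 22706 peaks of replicate 1 (left) and 31002 of replicate 2 (right), with the peaks of the Kmt5b window as circles and those of the Brd2 window as squares. The main Kmt5b peaks are the highest points, at 251 and 159, and the main Brd2 peaks are the points farthest right, at 5470 and 6245 bp.

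The replicates called nearly the same bases at both genes. The main Kmt5b peaks shared 2377 bp, since the replicate 1 peak lay wholly inside the replicate 2 peak. That is 92.4% of the bases covered in either replicate, more than at 94.1% of the 17867 shared regions, which are groups of overlapping peaks from both replicates. The replicate 2 peak began 158 bp earlier and ended 37 bp later. At Brd2 the replicates shared 5736 bp or 91.8% of the bases covered in either, more than at 93.3% of the shared regions. Its replicate 2 peak began 699 bp earlier and ended 76 bp later than the replicate 1 main peak. The median over all shared regions was 69.3%, and over the 133 shared regions whose main peaks were at least 2.5 kb wide in both replicates it was 87.4%.

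Summit positions set the genes apart, whereas the shared share of bases, at 92.4% and 91.8% with all peaks counted, was alike. The start edge also shifted more at Brd2, by 699 bp against 158 bp at Kmt5b. The Kmt5b summits lay 103 bp apart, or 4.005% of the region's width, and 52.7% of the shared regions had closer summits. The Brd2 summits lay 2453 bp apart, or 39.3% of its width. This distance was the fifth longest of all 17867 shared regions and the longest of the 133 wide ones, whose median was 82 bp. Brd2 is also the widest shared region, which leaves the most room for a distance in bp. As a share of width, 89.4% of the shared regions had a smaller distance than Brd2, and the 133 wide ones reached 55.4%. Among those 133 regions, 9 had summits over 1 kb apart, and Brd2 was the only one over 2 kb. Summits in the 10 best-ranked shared regions lay 11 to 103 bp apart, with Kmt5b at the upper end.

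**Figure D4:**
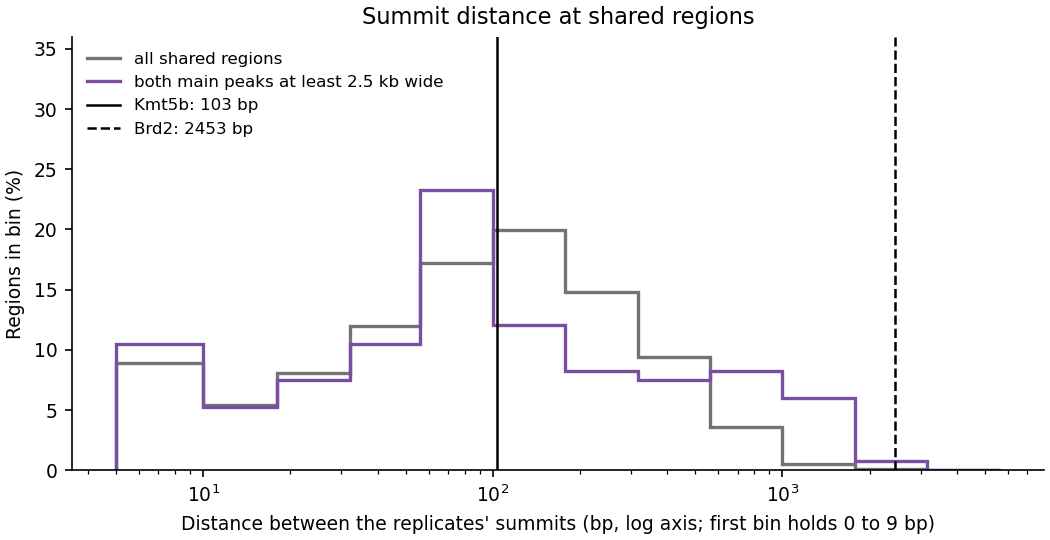
Distance in bp between the summits of the replicates (log axis, bins of equal width on that axis above 10 bp) against the percentage of regions in each bin, for all 17867 shared regions (grey) and for the 133 with main peaks of at least 2.5 kb in both replicates (purple). The solid line marks Kmt5b at 103 bp, close to the median of 95 bp, and the dashed line marks Brd2 at 2453 bp, at the end of both distributions.

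Summit height per depth had a ratio near 1 between the replicates at both genes, and most shared regions were higher in replicate 2. At Kmt5b the replicate 2 summit was 0.90 times that of replicate 1 after division by mean coverage (95% exact binomial interval 0.73 to 1.11). At Brd2 the ratio was 0.99 (0.73 to 1.34), between summits at different positions. The median ratio over the 17867 shared regions was 1.25, and only 4.43% of the regions had a ratio below that of Kmt5b and 10.7% below that of Brd2. Over the 10 best-ranked regions, which include Kmt5b, the ratios ran from 0.90 to 1.07. Over the 133 wide regions, which include Brd2, the median was 1.22 and 14 regions had a ratio below 1. These ratios are given without a test, since the reads come from the values that chose the members.

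Other CHD8 peaks within 50 kb of both genes were weak, and their numbers lay somewhat below the list medians. Around Kmt5b there was 1 other peak in replicate 1 and 3 in replicate 2 at this distance, and around Brd2 there were 2 and 2, against list medians of 3 and 4. Fewer were counted at 15.9% and 36.7% of the peaks of the lists for Kmt5b. For Brd2 these shares were 33.4% and 24.2%, so such counts are not unusual. In replicate 1 the nearest other peak lay 47066 bp before Kmt5b, at 3719142 to 3719941 with a fold enrichment of 4.10, and the nearest one after it lay 72839 bp away with 4.92. A shorter gap to the nearest neighbour was found at 83.1% of the peaks of that list, whose median gap was 6294 bp. In replicate 2 the weak peak at 3758353 reduced the gap to 8180 bp, with shorter gaps at 62.1% of the peaks and a list median of 3326 bp, and the nearest peak after lay 71990 bp away with a fold of 4.11. Within 100 kb of Kmt5b there were 8 and 10 other peaks, against medians of 5 and 7, and the strongest of these had folds of 6.97 and 7.53. Within 500 kb there were 35 and 41, against medians of 18 and 25, more than at 83.3% and 77.4% of the peaks of the lists. Their median folds were 4.58 and 4.71. The highest of these stood 483330 bp and 483155 bp before it, with folds of 18.2 and 19.8.

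Farther from Brd2, CHD8 peaks lay mostly on the side of lower coordinates. Within 100 kb there were 5 other peaks in each replicate, against medians of 5 and 7. The gap to the nearest peak was 106 bp in replicate 1, to the piece given above, and 7540 bp in replicate 2, where 60.9% of the peaks had a shorter one. Beyond these weak peaks, no peak lay between Brd2 and a site 85210 bp before it in replicate 1, with a fold of 10.6, and 84476 bp before it in replicate 2, with 10.8. Within 400 kb before the main peak, a distance chosen after the peaks were seen, there were 31 other peaks in replicate 1 and 45 in replicate 2, and within 400 kb after it only 2 and 4. Around Kmt5b the same counts were 9 and 9 before and 16 and 20 after. Within 500 kb on both sides of Brd2 there were 37 and 56 other peaks, against the same medians of 18 and 25, more than at 85.3% and 89.9% of the peaks of the lists. At this planned distance, 33 and 48 lay before Brd2 and 4 and 8 after it. The counts around Kmt5b were 12 and 14 before and 23 and 27 after. The strongest neighbour lay 161192 bp before it in replicate 1, at 34091219 to 34093641, with a fold of 26.1 and rank 41 by −log10 q. In replicate 2 the same site, at 34091721 to 34093714, had a fold of 27.0 and rank 25, so Brd2 was not the highest peak of its surroundings in either replicate. The nearest peak after Brd2 lay 11960 bp and 11799 bp away with folds of 4.27 and 3.77. In the RefSeq gene order of GRCm38.p6, Brd2 is followed by the class II histocompatibility genes H2-DMa, H2-DMb2 and H2-DMb1 and preceded by H2-Oa, Col11a2 and Rxrb, while Kmt5b lies between 1810055G02Rik and Chka. This order was used for names alone, and no peak was assigned to a neighbour.

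**Figure D5:**
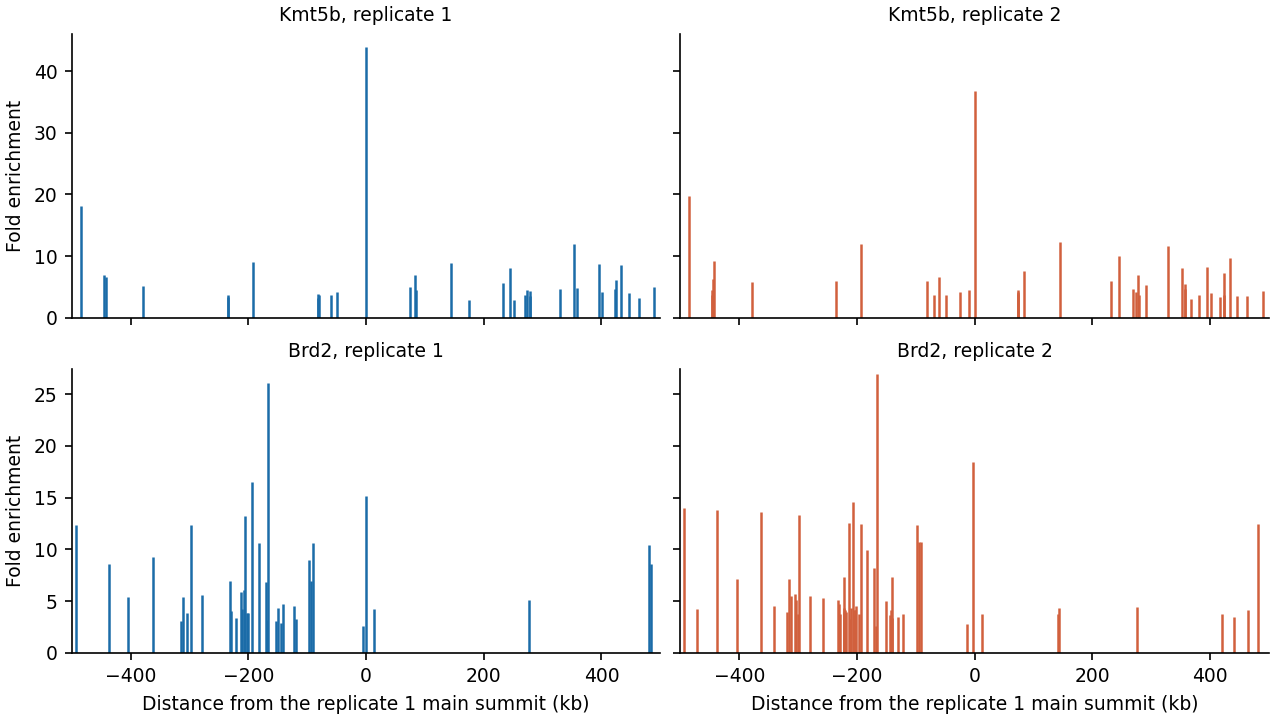
Fold enrichment of every called peak within 500 kb of the replicate 1 main summit at Kmt5b (top) and Brd2 (bottom), in replicate 1 (left, blue) and replicate 2 (right, orange), against distance in kb, with the rows on separate scales. Kmt5b, at 43.9 and 36.7, is the highest peak of its panels, as its choice fixes. Brd2 stands at 15.2 and 18.4, with few peaks on its right. On its left, 2 neighbours are higher in replicate 1 and 1 is higher in replicate 2.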

How the data were processed

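CHD8 was mapped by ChIP-seq after tagmentation on beads, per the labels' protocols. Per the submitters' processing notes, Bowtie2 2.1.0 and MACS2 2.1.1 were used with build mm9. Which control and settings each call used is not given in the sources used here. The authors deposited 1 peak list per ChIP sample, not pooled. Its fold enrichment is a linear ratio of the summit over the local background. Deposited significance is −log10 of the p-value and of the q-value, and the deposited score is 10 times the latter, cut to a whole number.

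Summit reads n and the background were solved from the deposited fold, (s × n + 1)/(background + 1), and p, the Poisson tail beyond s × n, by the caller's formulas, which the lists do not state. The factor s that scales the ChIP library was 1 in replicate 1 and 0.714 in replicate 2. All peaks were solved within 0.002 in log10 p, and 78 of replicate 2 had more than 1 solution, none of them a member. On lists simulated by the same formulas, 100% of read numbers were recovered for 22706 and 31002 peaks. That checks the solving step only, and cannot show whether the deposited values follow these formulas. The planned exact binomial test of the replicate ratio is not reported, because its reads derive from the values that chose the members. Overlap was counted from 1 bp, and distances run from edge to edge. Ranks are within a list.

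The members, lists and tests were chosen with earlier results of these data known. Named beside the members were the next peaks by a ranking, the nearest peaks and gene neighbours. The strongest neighbouring peaks were added to the rule once values were known. No mm9 annotation was used, so the planned gene families and Chd8 were not analysed. Alternatives covered ranking measure, overlap, score threshold, windows, single replicates, sets of like strength and joining of peaks. Python 3.11.15, numpy 2.4.6, pandas 2.3.3, scipy 1.17.1 and matplotlib 3.10.9 were used.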

Additional observations from a re-analysis of the deposited data

How the results depend on the processing

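Of 68 alternative values for 22 results, 53 stayed, 15 moved and none reversed. Staying meant within the replicate spread, on the same side of the test or within 1.5 times a count. Many of the 53 could not have moved, so the tally does not measure robustness. Dropping other peaks cannot change the fold or width of a main peak, or lower its rank of 1. Ranks by the measures that chose a member, and the share of peaks narrower than Brd2, were fixed by the choice. Single-replicate folds and widths are the values that make up the spread. Ranked by width, Kmt5b moved from a mean rank of 1 to 316. Brd2 moved from 1 by width to 346.5 by −log10 q and by −log10 p, 424 by fold enrichment and 322.5 by summit reads. It moved to 3.5 and 31 when peaks up to 200 bp and 1 kb apart were joined, since that makes other domains longer. Over the genome-wide background the mean Brd2 fold was 19.2 in place of 16.8. With the 50% of each list that scored higher, 2 of 4 peaks were left in either window, and Kmt5b had 3 in place of 9 neighbours within 100 kb. It had 5 when shared regions were counted. Widening the Kmt5b window by 50 kb on each side gave 16 peaks. The shared share of bases at Brd2 was 87.6% both under 50% reciprocal overlap and in those 50%, which leave out its 266-bp piece. Without replicate 1 or without replicate 2 the Kmt5b fold was 36.7 or 43.9 and the Brd2 fold 18.4 or 15.2. Both stayed at rank 1 in strength and width respectively, as their choice fixes. No paired analysis was possible because the lists cover the ChIP group alone and no result comes from a test between groups. Precision is limited by 2 replicates and by summits of 14 to 194 reads.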
